A study of Mus musculus with 92 samples.

Results

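Livers of 6-month-old female mice on a Low Isoleucine diet were compared with livers of 6-month-old females on a Low Amino Acid diet. The comparison holds 15 of the 92 libraries of the series. They are 7 Low Isoleucine libraries and 8 Low Amino Acid libraries, chosen by the sex, age and diet in their labels. One further library labelled as a Low Isoleucine female (replicate 3 of that group, the title ending in 14N) was left out; it held 700 estimated counts of the Y-linked gene Kdm5d, against at most 11 in each of the 15 used. All animals were HET3 mice, in which the genomes of several inbred strains segregate, and all were fasted for 16 h before the liver was frozen. Diets began at 9 weeks of age per the labels, whereas the series description gives 13 weeks on diet, so the time on diet at 6 months of age is uncertain. On Low Isoleucine that amino acid alone was restricted. On Low Amino Acid all amino acids were restricted, isoleucine included, so both diets were low in isoleucine. Food intake was not among the labels. The 8 Control libraries of the same age and sex (an unrestricted diet), and the 24-month females on the same restricted diets (8 Low Isoleucine and 7 Low Amino Acid libraries), serve only to place the values.

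Isoleucine is an essential branched-chain amino acid. Cells sense a shortage of any amino acid through the kinase GCN2 and the transcription factor ATF4, and a good supply through the kinase complex mTORC1, which also promotes fat synthesis by way of the factor SREBP1. Besides hepatocytes the liver holds resident macrophages called Kupffer cells, which clear particles from portal blood, and dendritic cells, which carry antigens on MHC class II proteins.

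The 15 libraries held between 18.9 and 27.2 M estimated counts (M: 1000000; median 20.9 M) over the 17275 genes that were filled for all females. Hepatocyte markers dominated every library, with summed levels of 97837 to 142667 counts per 1000000 (CPM) on Low Isoleucine and 88249 to 128375 CPM on Low Amino Acid. Replicate 8 of the Low Isoleucine group stood apart on the first principal component, which held 19.9% of the variance. The titles end in a number that several libraries of a diet share: replicates 1, 2 and 5 and replicates 6 and 7 of the Low Isoleucine group, and replicates 2, 3 and 8 (number 13) and replicates 6 and 7 of the Low Amino Acid group. The labels do not say what this number marks. It leaves 4 distinct numbers on Low Isoleucine and 5 on Low Amino Acid, and no source names separate animals or cages, so p-values measure the spread between libraries.

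Of 11845 genes tested, 190 (1.60%) differed between the diets at an adjusted p under 0.05 by edgeR's quasi-likelihood test. On Low Isoleucine 61 genes (0.515%) were higher and 129 (1.09%) were lower. Markers of macrophages and genes of antigen presentation by MHC class II made up the gene lists with the largest shares of called members, 56.2% and 55.6%. The lists were written with earlier results of these data known, so this ranking is a description only. In lists with 1 or 2 calls, the calls are given as single genes and not as results about the list. No listed gene of the integrated stress response or of fat oxidation was called. The groups did not overlap in CPM for 79 of all genes tested (0.667%), and these included 22 of the genes called higher and 38 of those called lower. Fold changes of called genes ran in size between 0.258 and 2.86 on the log2 scale, and the median over all genes tested was 0.000577. Without the 3 Low Amino Acid libraries numbered 13, 0 genes were called (1325 had an unadjusted p under 0.05, against 2188 with them). The smallest adjusted p was then 0.0634 (edgeR), and all 190 genes kept an unadjusted p under 0.05. Without the 3 Low Isoleucine libraries numbered 3, 29 rises and 79 falls were called (edgeR). Why the calls were lost without the libraries numbered 13 was not tested. With title number as a random effect in limma's voom 0 were called (1660 unadjusted). A fit of all 6 female groups called 0 rises and 2 falls, and DESeq2 called 250 rises and 365 falls. Of the single libraries, leaving out Low Isoleucine replicate 4, 5, 6 or 8 left 22 to 31 rises and 56 to 81 falls, and leaving out Low Amino Acid replicate 2, 3, 5, 6 or 8 left 12 to 35 rises and 44 to 76 falls. Without Low Isoleucine replicate 1 there were 96 rises. Under each of these settings all 190 genes kept the direction of their difference. The genes were selected in the same libraries that the settings refit. Their kept directions and kept unadjusted p-values are therefore a description only.

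**Figure D1:**
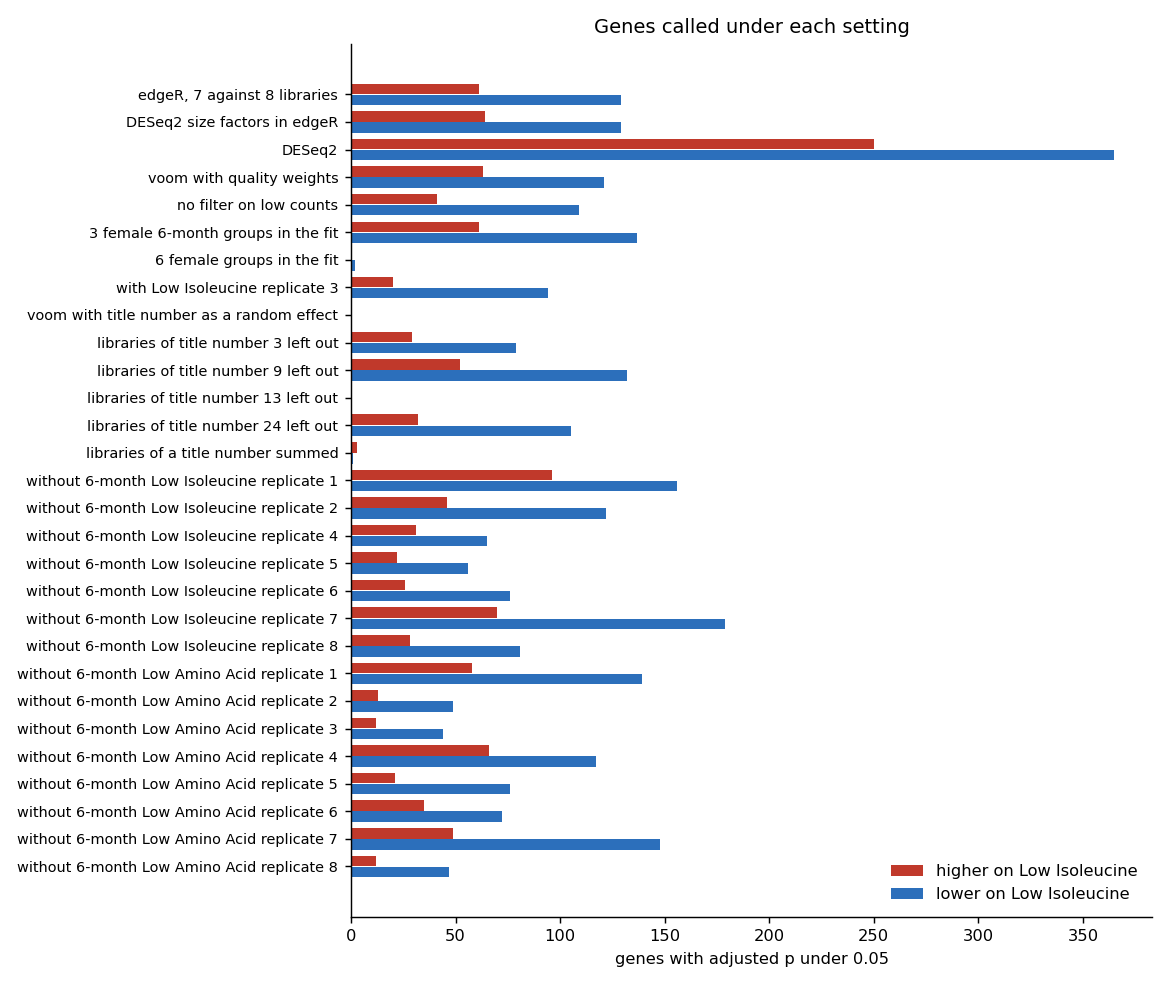
Genes with an adjusted p under 0.05 (horizontal axis, number of genes) for Low Isoleucine against Low Amino Acid in 6-month females, under the fit reported here (top bars, 61 higher and 129 lower) and under each alternative. Red bars are genes higher on Low Isoleucine and blue bars genes lower on it. Falls numbered 0 to 365, and falls outnumbered rises in every setting with calls except when libraries of a title number were summed.

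Markers of Kupffer cells and other macrophages were lower on Low Isoleucine. Of 16 markers, all of them tested, 9 fell and 0 rose, and the median log2 fold change was -0.81. The other 7 lay between -0.98 and -0.12 without passing the test. Adgre1, which encodes the macrophage surface protein F4/80 (chr17:57358691-57483527, GRCm38), had 9.96, 16.4 and 22.5 CPM on Low Isoleucine (lowest, median and highest library), against 25.6, 30.7 and 33.7 CPM on Low Amino Acid. Every Low Isoleucine library lay below every Low Amino Acid library. The log2 fold change of Adgre1 was -0.92 ± 0.15 (SE, edgeR adjusted p = 0.0129).

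Csf1r, the receptor for the growth factor that keeps macrophages alive, had 41.5, 62.9 and 94.0 CPM on Low Isoleucine and 99.8, 121.7 and 154 CPM on Low Amino Acid, again without overlap (-0.83 ± 0.15, edgeR adjusted p = 0.0140). Vsig4, a complement receptor of Kupffer cells, had 14.1, 25.3 and 36.1 CPM on Low Isoleucine and 41.8, 48.6 and 57.2 CPM on Low Amino Acid (-0.90 ± 0.17, edgeR adjusted p = 0.0179). Its groups did not overlap either. Clec4f, a lectin made by Kupffer cells in the mouse, had 63.1, 99.2 and 140 CPM on Low Isoleucine and 121, 155 and 177 CPM on Low Amino Acid (-0.70 ± 0.15, edgeR adjusted p = 0.0275), with 6 of 7 Low Isoleucine libraries below the lowest Low Amino Acid library. C1qa and C1qc, chains of the complement protein C1q, fell by 0.93 and 0.87 on the log2 scale, and C1qb, the chain between them in the same protein, had a log2 fold change of -0.80 (edgeR adjusted p = 0.0627). Fcgr1, a receptor for antibodies, Folr2, a folate receptor of resident macrophages, and Cd14, which binds bacterial lipopolysaccharide, fell by 1.001, 0.96 and 0.68. Timd4, Cd163, Cd5l, Cd68 and Marco were among the markers that did not pass, and Mpeg1 differed least (-0.12, edgeR adjusted p = 0.780). In whole liver, fewer macrophages and less of these RNAs per macrophage cannot be told apart. None of the 16 markers was called without the libraries numbered 13 or in a fit of all 6 female groups. The same held with title number as a random effect and with counts summed over title numbers. The median of the 16 markers was between -0.96 and -0.71 under all 28 alternatives, which share most of their libraries. Of the single libraries, Low Amino Acid replicates 2, 3 and 8 moved the count most, to 5, 4 and 5 markers when each was left out.

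**Figure D2:**
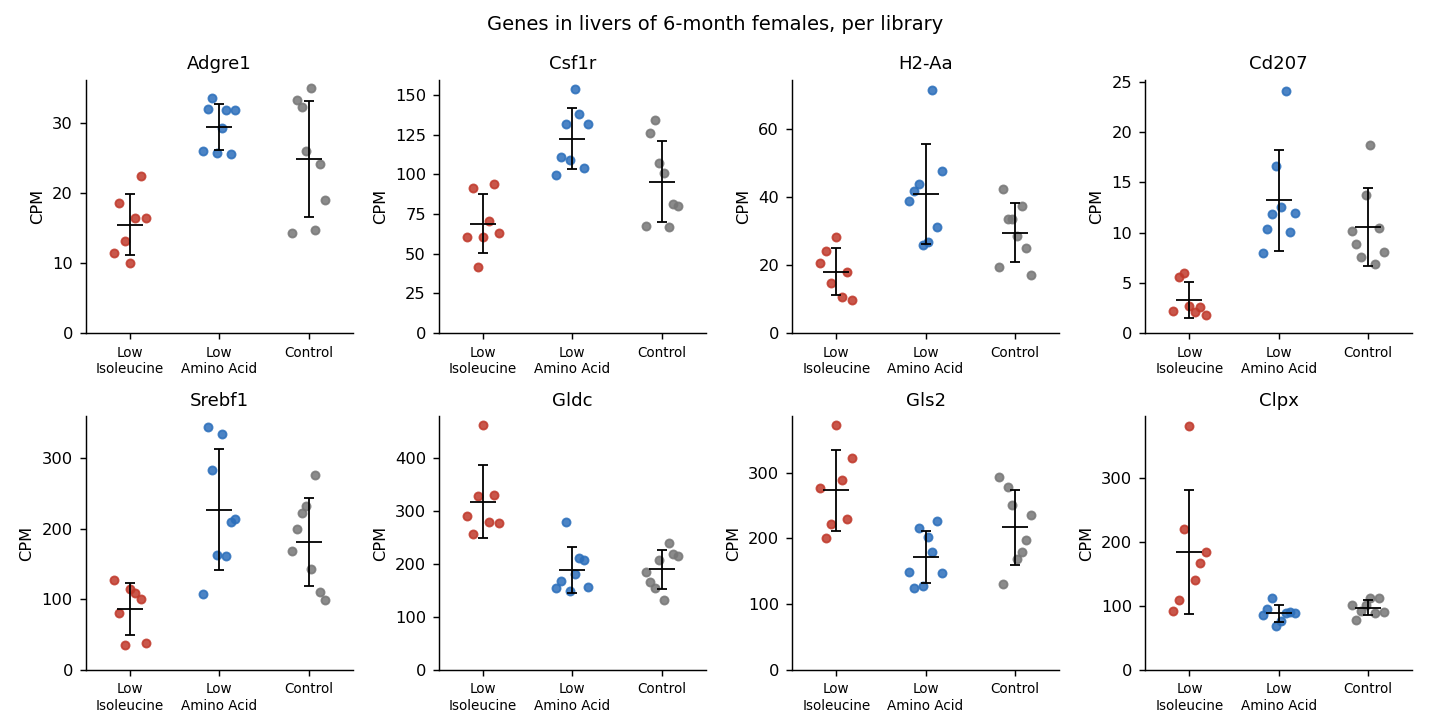
CPM (vertical axes, each starting at 0) of 8 genes in each liver library of 6-month females on Low Isoleucine (red, 7 libraries), Low Amino Acid (blue, 8) and Control (grey, 8). Points are libraries and black marks are the mean and SD. Adgre1, Csf1r and Cd207 did not overlap between the 2 restricted diets, and Control libraries reached into both ranges for Adgre1 and Csf1r and lay above the Low Isoleucine range for Cd207.

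Genes of the MHC class II pathway were lower on Low Isoleucine as well. Of 12 listed genes 9 were tested, 5 fell and 0 rose, and the median log2 fold change was -1.04. Promoters of the genes for class II molecules carry a conserved module that ends in a Y box, a CCAAT word bound by the factor NF-Y. The sequences 250 bases before to 50 bases after the start of 3 of the falling genes are printed here from RefSeq on GRCm38.p6 to show that word, in capitals, in either orientation. All 3 hold the word. The window of Ctss, which also fell, does not hold it and is not printed.
H2-Aa: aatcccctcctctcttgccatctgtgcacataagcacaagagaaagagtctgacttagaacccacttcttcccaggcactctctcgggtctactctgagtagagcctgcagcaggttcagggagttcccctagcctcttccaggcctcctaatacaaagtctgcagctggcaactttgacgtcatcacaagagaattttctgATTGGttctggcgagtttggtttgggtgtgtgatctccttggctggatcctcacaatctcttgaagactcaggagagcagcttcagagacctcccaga
H2-Eb1: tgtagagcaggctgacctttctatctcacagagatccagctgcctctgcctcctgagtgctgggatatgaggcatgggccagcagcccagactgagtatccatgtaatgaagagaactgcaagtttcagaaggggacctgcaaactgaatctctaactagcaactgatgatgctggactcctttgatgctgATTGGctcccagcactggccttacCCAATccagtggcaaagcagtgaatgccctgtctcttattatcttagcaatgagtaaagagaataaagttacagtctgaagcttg
H2-DMb2: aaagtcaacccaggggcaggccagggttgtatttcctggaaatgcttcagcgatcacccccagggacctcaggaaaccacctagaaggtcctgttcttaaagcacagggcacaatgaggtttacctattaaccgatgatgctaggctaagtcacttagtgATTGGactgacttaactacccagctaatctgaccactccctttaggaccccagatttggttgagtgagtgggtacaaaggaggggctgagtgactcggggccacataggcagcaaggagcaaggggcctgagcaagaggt
These windows lie at chr17:34287774-34288073 on the minus strand, chr17:34305617-34305916 on the plus strand and chr17:34144999-34145298 on the plus strand. The word CCAAT, or ATTGG on the other strand, was present in 6 of 9 windows found for 7 of the tested MHC class II genes (66.7%) and in 37.4% of all 32851 promoter windows in the table. A match is a description of the sequence and not of binding.

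H2-Aa and H2-Eb1 encode the alpha chain and a beta chain of class II molecules. H2-Aa had 9.74, 18.002 and 28.2 CPM on Low Isoleucine and 25.8, 40.3 and 71.5 CPM on Low Amino Acid (-1.18 ± 0.25, edgeR adjusted p = 0.0337). H2-Eb1 had 4.06, 9.92 and 16.0 CPM on Low Isoleucine and 11.2, 23.9 and 37.3 CPM on Low Amino Acid (-1.24 ± 0.28, edgeR adjusted p = 0.0360). In both genes most Low Isoleucine libraries lay below the whole Low Amino Acid group, 6 of 7 for H2-Aa and 5 of 7 for H2-Eb1. Cd74, the invariant chain that escorts class II molecules, had 30.5, 60.2 and 84.6 CPM on Low Isoleucine and 81.9, 119.2 and 191 CPM on Low Amino Acid (-1.04 ± 0.22, edgeR adjusted p = 0.0295). H2-DMb2, part of the peptide loader, and Ctss, a protease that trims the invariant chain, fell by 1.15 and 0.73. H2-DMb2 has a near copy, H2-DMb1, so its reads are uncertain. Ciita, the master activator of the class II genes, had 1.28, 3.12 and 4.07 CPM on Low Isoleucine and 2.69, 5.68 and 11.2 CPM on Low Amino Acid, and did not pass the test (-1.09 ± 0.30, edgeR adjusted p = 0.0752). The number of class II genes called was less steady than the macrophage count, between 0 and 6 as single libraries were left out, while the median log2 fold change stayed between -1.14 and -0.90. It was 0 without Low Isoleucine replicate 4 or 6, or Low Amino Acid replicate 2, 3 or 8, 1 without Low Isoleucine replicate 8 or Low Amino Acid replicate 6, and 2 or 3 without Low Isoleucine replicate 1 or 5 or Low Amino Acid replicate 1 or 5. It was 0 as well in a fit of all 6 female groups, without the libraries numbered 13, with title number as a random effect and with counts summed over title numbers. It was 1 without title number 9, 2 without number 24 or with 3 groups in the fit, and 3 without number 3, with the library ending in 14N or with no filter on low counts.

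Cd207, which encodes the lectin langerin of Langerhans cells and of some dendritic cells and macrophages, showed the second largest fall among the named genes. It had 1.79, 2.59 and 6.01 CPM on Low Isoleucine and 7.97, 11.9 and 24.1 CPM on Low Amino Acid (chr6:83671215-83677857). The groups did not overlap, and the log2 fold change was -2.02 ± 0.29 (edgeR adjusted p = 0.0117). Cd207 was the only 1 of 11 tested dendritic markers to be called, and 10 of those 11 had a fold change below 0 (median -0.35). Summed dendritic markers were 37.3 to 48.9 CPM on Low Isoleucine and 52.2 to 67.6 CPM on Low Amino Acid, but without Cd207 the sums overlapped, at 33.3 to 47.1 CPM on Low Isoleucine and 38.8 to 48.3 CPM on Low Amino Acid. The difference of Cd207 had an adjusted p of 0.0654 with title number as a random effect in limma, 0.0667 in edgeR without the libraries numbered 13 and 0.0803 in edgeR with libraries of a number summed.

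Lists of other immune cells had no gene called. All 6 tested markers of T and NK cells, all 6 of B and plasma cells and all 3 of neutrophils had a fold change below 0, with medians of -0.75, -0.70 and -0.70, at levels near 1 CPM for most. Among 18 tested cytokines and chemokines 2 fell: Ccl6, a chemokine of myeloid cells (-0.87 ± 0.17, edgeR adjusted p = 0.0170), and Cxcl16, a ligand that draws T and NKT cells (-0.42 ± 0.10, edgeR adjusted p = 0.0485). Ccr3, the chemokine receptor of eosinophils, showed the largest fall among the named genes (-2.86 ± 0.58, edgeR adjusted p = 0.0277), but its libraries overlapped, at 0.214, 0.514 and 2.58 CPM on Low Isoleucine and 0.514, 5.22 and 11.9 CPM on Low Amino Acid. Il2rg, the shared chain of several interleukin receptors, fell by 1.29 without overlap. Of the interferon response, 1 of 29 tested genes fell, Psmb8, a subunit of the immunoproteasome (-0.58 ± 0.13, edgeR adjusted p = 0.0370).

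**Figure D3:**
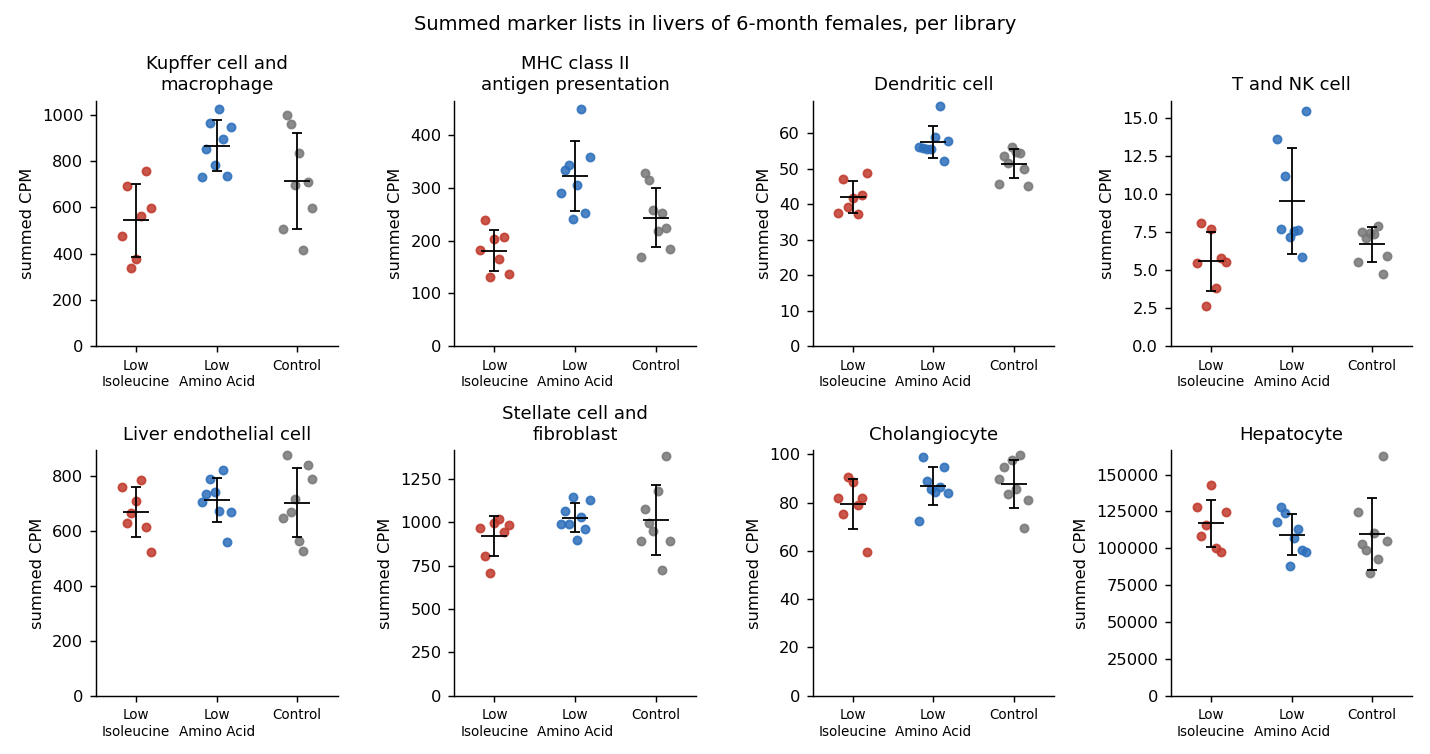
Summed CPM (vertical axes, each starting at 0) of 8 lists of marker genes in each liver library of 6-month females on Low Isoleucine (red, 7 libraries), Low Amino Acid (blue, 8) and Control (grey, 8), with mean and SD in black. Kupffer cell and macrophage sums were 339 to 759 CPM on Low Isoleucine and 730 to 1027 CPM on Low Amino Acid, while endothelial sums overlapped widely.

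Summed macrophage markers had a median of 564 CPM on Low Isoleucine, 874 CPM on Low Amino Acid and 703 CPM on Control, and 1 Low Isoleucine library lay above the lowest Low Amino Acid library. The sums of class II genes did not overlap between the restricted diets, at 132 to 240 CPM on Low Isoleucine and 242 to 450 CPM on Low Amino Acid, with 170 to 328 CPM on Control. Other cells of the liver differed less. Endothelial markers (14 tested), stellate cell markers (14) and cholangiocyte markers (9) had 0 genes called, with medians of -0.07, -0.20 and -0.35. Endothelial sums were 524 to 788 CPM on Low Isoleucine and 561 to 824 CPM on Low Amino Acid. All 14 stellate markers had a fold change below 0. Of 30 tested collagen and matrix genes 1 fell, Mmp2, a gelatin-digesting protease (-0.68 ± 0.16, edgeR adjusted p = 0.0425). Adipocyte marker sums overlapped as well, at 170 to 685 CPM on Low Isoleucine and 390 to 1419 CPM on Low Amino Acid, and 0 of 4 tested adipocyte genes were called. The part of cell numbers in any of these differences was not tested.

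Srebf1, which encodes the fat-synthesis factor SREBP1 (chr11:60199089-60222581), was lower on Low Isoleucine. It had 35.6, 101.1 and 127 CPM on Low Isoleucine and 108.4, 211 and 344 CPM on Low Amino Acid, and 99.3, 184 and 276 CPM on Control. Of the 7 Low Isoleucine libraries 4 lay below the Low Amino Acid group. The log2 fold change was -1.40 ± 0.31 (edgeR adjusted p = 0.0377). The call was lost in 17 of 28 alternatives, among them 10 of the 15 fits that left out a single library (edgeR adjusted p up to 0.0751), and without the libraries numbered 13 the adjusted p was 0.277 (edgeR). RefSeq gives 3 starts for Srebf1, and the window around the innermost of them (chr11:60210422-60210721, minus strand) is printed because SREBP1 is known to act on the promoter of its own gene, with the CCAAT word, which reads ATTGG on this strand, in capitals.
Srebf1: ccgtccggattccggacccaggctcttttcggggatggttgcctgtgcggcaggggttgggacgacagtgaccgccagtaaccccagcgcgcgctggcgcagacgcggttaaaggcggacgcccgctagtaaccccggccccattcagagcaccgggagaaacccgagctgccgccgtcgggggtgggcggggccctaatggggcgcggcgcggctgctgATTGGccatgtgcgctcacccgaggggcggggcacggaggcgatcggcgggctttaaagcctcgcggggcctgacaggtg
A sterol regulatory element was searched as TCACNCCAC on both strands and an E-box as CACGTG. Neither exact word was found in the 3 windows of Srebf1. Variants of these words were not searched, so the result does not show that such elements are absent. The exact words occur in 1.24% and 7.15% of all promoter windows.

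The enzymes under SREBP1 did not follow at the threshold. Of 30 tested genes of SREBP1 and fatty acid synthesis 1 was called, Srebf1 itself, and the median was -0.10. Fasn, fatty acid synthase, had 79.1, 142 and 240 CPM on Low Isoleucine and 107.98, 206 and 347 CPM on Low Amino Acid (-0.46 ± 0.26, edgeR adjusted p = 0.359). Cholesterol synthesis and uptake (26 tested), fatty acid oxidation (33), lipid droplets (24), apolipoproteins (21) and bile acid genes (24) had 0 calls, with medians of -0.16, 0.02, 0.04, 0.02 and 0.13. Cyp7a1, which catalyses the first step from cholesterol to bile acids, had a log2 fold change of 0.13 ± 0.43. Slc13a3, a carrier of dicarboxylates, fell by 1.36 ± 0.29 without overlap.

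**Figure D4:**
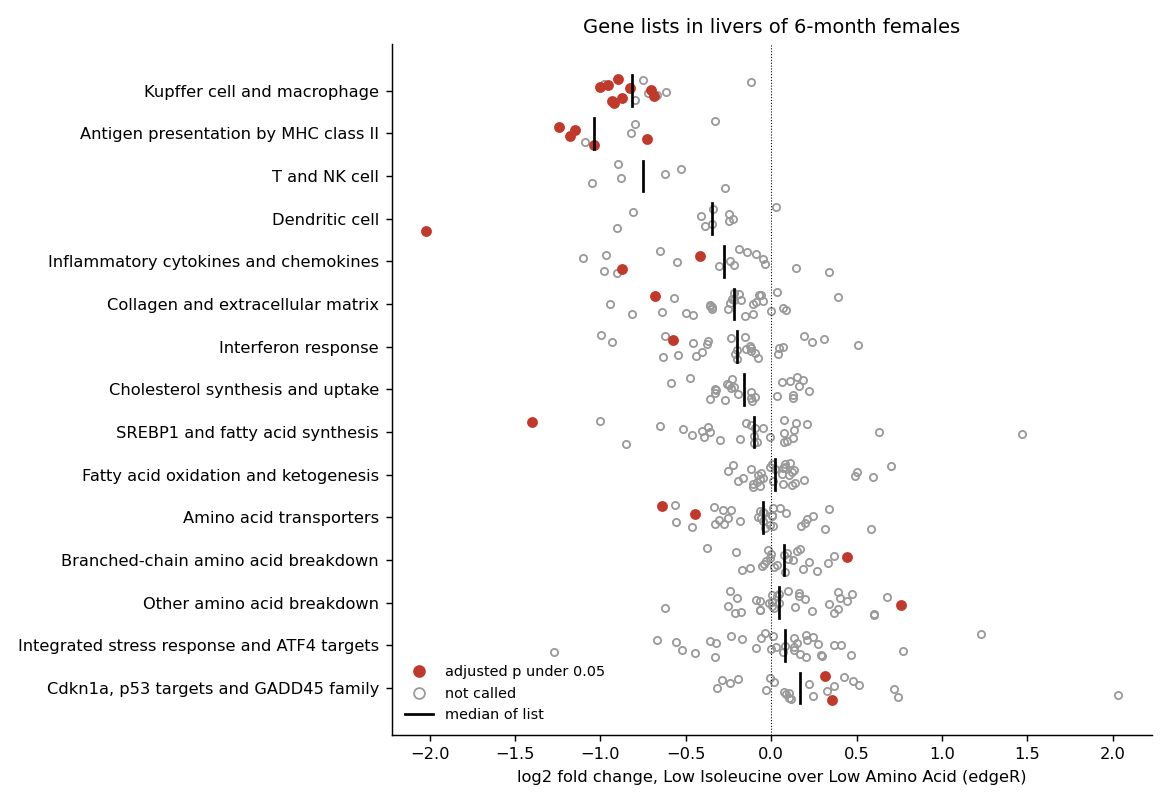
Fitted log2 fold change of Low Isoleucine over Low Amino Acid (horizontal axis) for every tested gene of 15 gene lists (rows) in 6-month females. Filled red points passed an adjusted p under 0.05, open points did not, and black bars are list medians. Macrophage and class II lists lie left of 0 (medians -0.81 and -1.04), and the ATF4 list lies around 0 (median 0.08).

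The signals of amino acid shortage gave no call between the diets. Of 35 tested genes of the integrated stress response 0 were called and 11 had an unadjusted p under 0.05 (median 0.08). Over all 11845 genes tested, 2188 had an unadjusted p under 0.05 (edgeR). Atf4 had 53.2, 66.2 and 77.6 CPM on Low Isoleucine and 48.2, 52.1 and 67.0 CPM on Low Amino Acid (0.29 ± 0.09, edgeR adjusted p = 0.0977). Fgf21, the fasting and protein-restriction hormone of liver, had 0.726, 19.4 and 27.4 CPM on Low Isoleucine and 6.91, 16.1 and 27.7 CPM on Low Amino Acid (0.13 ± 0.49, edgeR adjusted p = 0.922). Its interval is wide and does not show equal levels. Asns, asparagine synthetase and a classic ATF4 target, was too low to test, with at most 1.05 CPM on Low Isoleucine and 0.973 CPM on Low Amino Acid. Vldlr, a lipoprotein receptor that ATF4 raises, reached 1.23 ± 0.31 (edgeR adjusted p = 0.0628). None of 38 tested regulators of GCN2, eIF2 and mTORC1 was called.

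Single genes that break amino acids down were called higher on Low Isoleucine. Over all genes tested 1.60% were called, so 1 call in a list is no result about that list. Gldc, the decarboxylase of the glycine cleavage system (chr19:30098447-30175429), had 256, 290 and 462 CPM on Low Isoleucine and 149, 174 and 280 CPM on Low Amino Acid (0.76 ± 0.14, edgeR adjusted p = 0.0144). The groups overlapped through the highest Low Amino Acid library. Gls2, the liver glutaminase (chr10:128194457-128210004), had 201, 276 and 373 CPM on Low Isoleucine and 125, 164 and 226 CPM on Low Amino Acid (0.68 ± 0.15, edgeR adjusted p = 0.0366), with 5 of 7 Low Isoleucine libraries above the whole Low Amino Acid group. Hsd17b10, a mitochondrial dehydrogenase of isoleucine breakdown, had 138, 168 and 223 CPM on Low Isoleucine and 99.5, 127 and 149 CPM on Low Amino Acid (0.44 ± 0.10, edgeR adjusted p = 0.0372). It was the only 1 of 25 tested genes of branched-chain amino acid breakdown to pass (median 0.07). The calls of Hsd17b10, Gls2 and Gldc were lost in 20, 17 and 5 of 28 alternatives. Dbt, a subunit of the dehydrogenase that commits branched-chain ketoacids to oxidation, had a log2 fold change of 0.33, and Ppm1k, the phosphatase that switches that enzyme on, one of -0.38, with adjusted p of 0.129 and 0.157 (edgeR). Gldc was the only rise among 35 genes of other amino acid breakdown (median 0.05), and Gls2 the only one among 12 genes of the urea cycle and ammonia handling (median 0.02).

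Among 34 tested amino acid transporters 2 fell. Slc43a2, which carries isoleucine and other large neutral amino acids, had 21.3, 23.9 and 26.1 CPM on Low Isoleucine and 29.04, 32.0 and 38.3 CPM on Low Amino Acid (-0.45 ± 0.08, edgeR adjusted p = 0.0129). The groups did not overlap. Slc7a7, a subunit of a cationic amino acid exchanger, fell by 0.64 ± 0.15 with 6 of 7 Low Isoleucine libraries below the Low Amino Acid group. Gatm, the first enzyme of creatine synthesis, fell by 0.57 ± 0.13, the only call among 22 genes of methionine, folate and one-carbon metabolism (median 0.08).

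Hormone receptors and clock genes were among the smaller differences. Ghr, the growth hormone receptor, had 396, 466.3 and 577 CPM on Low Isoleucine and 542, 609 and 794 CPM on Low Amino Acid (-0.44 ± 0.10, edgeR adjusted p = 0.0336). Igf1, which growth hormone drives in liver, did not pass (-0.25 ± 0.12, edgeR adjusted p = 0.275). Esr1, the estrogen receptor alpha, had 42.9, 49.7 and 64.1 CPM on Low Isoleucine and 56.8, 68.2 and 81.7 CPM on Low Amino Acid (-0.40 ± 0.09, edgeR adjusted p = 0.0360), the only call among 11 estrogen response genes (median 0.06). Bhlhe40, a repressor within the circadian clock, fell by 0.72 ± 0.14, and Clock, an activator of that clock, rose by 0.56 ± 0.14 (edgeR adjusted p = 0.0218 and 0.0443), the 2 calls among 23 clock genes. Arntl, the partner of Clock, had a log2 fold change of 1.66 without passing (edgeR adjusted p = 0.0597). The hour of killing was not among the labels. Ppargc1a, a coactivator of fasting metabolism, had a log2 fold change of 0.29 ± 0.18 (edgeR adjusted p = 0.427).

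The largest rises were in genes of varied roles. Mmd2, a Golgi membrane protein, had 6.07, 12.3 and 21.8 CPM on Low Isoleucine and 1.95, 4.52 and 6.81 CPM on Low Amino Acid (1.55 ± 0.28, edgeR adjusted p = 0.0140). G6pc2, a glucose-6-phosphatase known from pancreatic islets, had 1.06, 1.58 and 3.24 CPM on Low Isoleucine and 0.442, 0.647 and 0.834 CPM on Low Amino Acid (1.54 ± 0.27, edgeR adjusted p = 0.0139). G6pc2 did not overlap between the diets, and Mmd2 did through 1 Low Isoleucine library. Clpx, the unfolding subunit of a mitochondrial protease (chr9:65294260-65330658), had 91.2, 167 and 381 CPM on Low Isoleucine and 69.1, 88.2 and 113.4 CPM on Low Amino Acid (1.07 ± 0.24, edgeR adjusted p = 0.0360). The highest value came from 1 library. Clpx was called after counts were summed over title numbers (edgeR adjusted p = 0.00629), but the call was lost in 16 of 28 alternatives, among them 9 of the 15 fits that left out a single library, and the adjusted p reached 0.223 without the libraries numbered 13 (edgeR). Ildr2 and Mreg rose by 0.93 and 0.84 without overlap. Trim2, a ubiquitin ligase, rose by 0.84 with 6 of 7 Low Isoleucine libraries above the Low Amino Acid group, and stayed called after summing (edgeR adjusted p = 0.00629), and its call was lost in 3 of 28 alternatives: without the libraries numbered 13, with title number as a random effect and in a fit of all 6 female groups. The other named rises were Osbp2 (1.35), Bdh2 (1.13), Clic5 (0.85), Kbtbd8 (0.84) and Myh10 (0.77).

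The p53 list held 2 small rises. Aen, a nuclease induced by p53, and Zmat3, an RNA-binding protein induced by p53, rose by 0.36 ± 0.08 and 0.32 ± 0.08, the only calls among 24 genes (median 0.17). Cdkn1a, the cell cycle inhibitor p21, had 1.01, 4.17 and 20.3 CPM on Low Isoleucine and 0.788, 1.47 and 3.96 CPM on Low Amino Acid, and its rise of 2.03 ± 0.54 in log2 terms did not pass (edgeR adjusted p = 0.0720). Further falls among the named genes were Sema5b (-1.90), the transcription factor Mycn (-1.79), Fndc5 (-1.47), the guanylate-binding protein Gbp2b (-1.46), whose reads near-identical paralogues may share, Bmf, a pro-death relative of BCL2 (-1.37), D630003M21Rik (-1.33) and the collagen Col6a6 (-1.31). C6, a component of the terminal complement pathway, fell by 0.63 ± 0.15, the 1 call among 34 complement and coagulation genes (median -0.07). Sema5b, Fndc5 and D630003M21Rik did not overlap between the diets.

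The mean CPM of Control livers lay between the means of the restricted diets for 53 of the 61 genes called higher and for 120 of the 129 called lower, against 35.9% of all genes tested. Genes called for a gap between the diets are more likely to hold the mean of another group within it, so these counts are a description only. In a fit of the 3 diets, 66 of 12125 genes (0.544%) differed between Low Isoleucine and Control and 6 (0.0495%) between Low Amino Acid and Control. Both comparisons use the same Control libraries. Against Control, Cd207 had a log2 fold change of -1.70 on Low Isoleucine (edgeR adjusted p = 0.00817) and 0.32 on Low Amino Acid (edgeR adjusted p = 0.603). Adgre1 had -0.68 on Low Isoleucine and 0.24 on Low Amino Acid, and H2-Aa had -0.72 on Low Isoleucine and 0.46 on Low Amino Acid. None of these 4 values passed the test. Bhlhe40 and Esr1 had -1.03 and -0.80 on Low Isoleucine (edgeR adjusted p = 0.000405 for both) and -0.31 and -0.41 on Low Amino Acid, which did not pass. Gldc, Trim2 and Clpx had 0.74, 0.78 and 0.93 on Low Isoleucine (edgeR adjusted p = 0.0137, 0.0135 and 0.0364) and -0.02, -0.06 and -0.15 on Low Amino Acid. Mmd2 ran the other way, with -0.34 on Low Isoleucine and -1.90 on Low Amino Acid (edgeR adjusted p = 0.673 and 0.0215).

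The same contrast was fitted in 24-month females, whose diets began at 6 months of age, so age, starting age and time on diet cannot be told apart. No gene passed the test of the difference between the ages: 0 of 12389 (0%) by edgeR, with 1020 at an unadjusted p under 0.05 and 0 calls by DESeq2. Of the 190 genes called at 6 months, 121 had the same sign at 24 months. The same share over all genes tested was not computed, so this count is a description only. At 24 months 0 of the 9 class II genes were called. Of these 9, 8 had a log2 fold change above 0 at 24 months, with a median of 0.87, against -1.04 at 6 months. For H2-Aa the 24-month value was 0.88 ± 0.46, and its difference between the ages (6 minus 24 months) was -2.05 ± 0.66 (edgeR unadjusted p = 0.00431, adjusted p = 0.528). Macrophage markers had a median of -0.15 at 24 months with 11 of 16 below 0 and 0 called. Cd207 had -0.26 ± 0.27 at 24 months, and its difference between the ages was -1.74 ± 0.40 (edgeR unadjusted p = 0.000135, adjusted p = 0.528).

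Some of the named genes also passed the test at 24 months and are given here for that reason. G6pc2 had a log2 fold change of 1.59 ± 0.33 (edgeR adjusted p = 0.00795), Bhlhe40 one of -0.98 ± 0.19 (edgeR adjusted p = 0.00403), and Slc13a3 one of -1.43 ± 0.33 (edgeR adjusted p = 0.0179), all in the direction seen at 6 months. Bmf (-1.41), Fndc5 (-1.04), Ghr (-0.53) and Esr1 (-0.47) also passed at 24 months. Srebf1 had -0.91 ± 0.26 and did not pass (edgeR adjusted p = 0.0544).

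**Figure D5:**
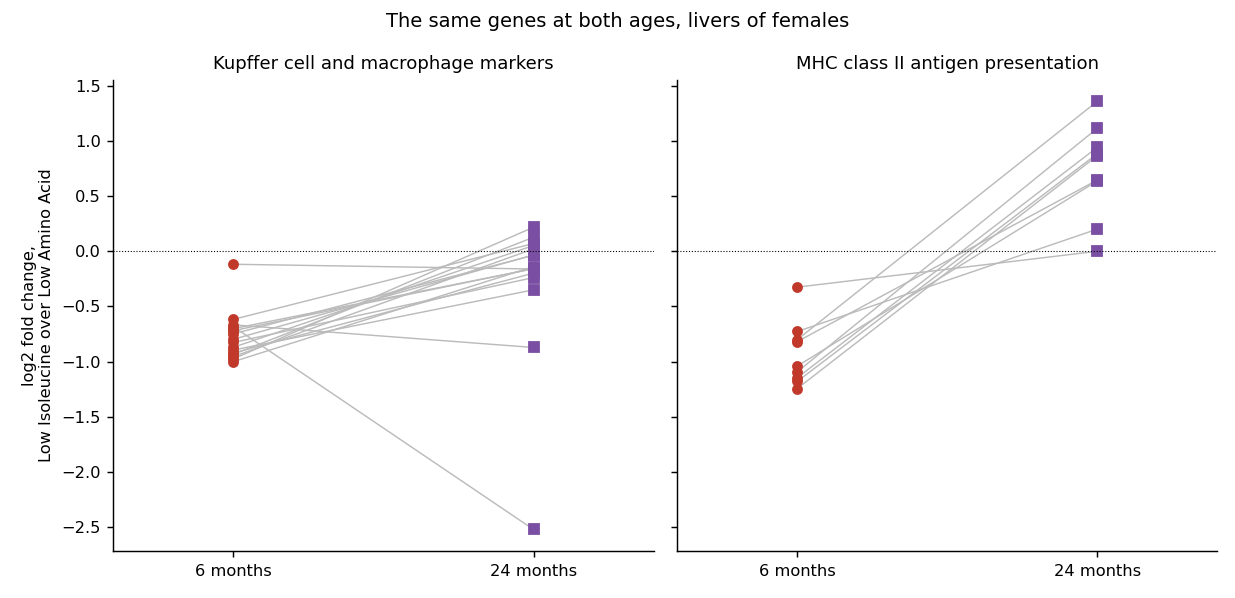
Fitted log2 fold change of Low Isoleucine over Low Amino Acid (vertical axis) at 6 months (red circles) and 24 months (purple squares) in female livers, for 16 macrophage markers (left) and 9 MHC class II genes (right), with a line joining each gene. All points at 6 months are below 0, and 8 of the 9 class II genes are above 0 at 24 months.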

How the data were processed

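Livers were profiled by stranded, polyadenylated RNA sequencing, per the labels' protocols. The authors deposited a table of estimated counts per gene (not normalized, from RSEM by its name). The submitters' processing notes name edgeR, limma, R 3.4.3 and GRCm38.p5. No aligner or annotation is given in the sources used here. The count table is misaligned, so 45 columns of males were not used and only the 17275 of 51912 lines filled for all 47 female columns were. Symbols and positions come from GENCODE M21 on GRCm38 (17251 identifiers matched). The log2 fold changes in the authors' deposited table for females served as a check, and its p-values were not used. The difference of the deposited log2 values of both diets correlated with the fit here at r = 0.961 across 11781 genes.

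Counts were rounded to whole numbers, filtered by filterByExpr, scaled by TMM and tested on the 7 and 8 libraries alone with edgeR 4.0.16 (R 4.3.3; glmQLFit, robust), with Benjamini-Hochberg adjustment over all genes and calls at an adjusted p under 0.05. A fold change is Low Isoleucine over Low Amino Acid, with its standard error (SE). CPM uses TMM-scaled totals of the 23 female 6-month libraries. The fit was also run on simulated counts. These were drawn independently for each library, so that run did not cover the correlation within title numbers. Alternatives used DESeq2 1.42.0 and limma 3.58.1. Named genes are the 12 largest rises and falls among calls with a mean of at least 1 CPM, every called gene of the gene lists, and 10 followed genes. Further genes named with an adjusted p above 0.05 were chosen after their values were seen. Members and lists were chosen with earlier results of these data known. The number of libraries limits the precision. One gene's result is not reported here.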

Additional observations from a re-analysis of the deposited data

Results flagged for a closer look

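Across 152 groups of library values examined (named genes and summed marker lists, each diet apart), 11 held a library far from the nearest other one. About 1 in 20 groups is flagged by chance (7.6 groups here).

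Replicate 5 of the Low Isoleucine group was high for 3 genes. It had 130 CPM of Mreg (next highest 73.5), 462 CPM of Gldc (next 330) and 2.58 CPM of Ccr3 (next 1.05). Without it Mreg and Gldc kept their call. In the same group replicate 7 had 0.864 CPM of Fndc5 (next 0.628), replicate 6 had 4.83 CPM of Clic5 (next 3.10), replicate 2 had 5.70 CPM of Slc7a7 (next 3.78), replicate 8 had 95.3 CPM of Ppargc1a (next 57.5), and replicate 4 had the low value of Gatm, 8.24 CPM (next lowest 11.6).

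Among Low Amino Acid libraries, replicate 3 had 28.7 CPM of Sema5b (next 13.2), replicate 2 had 67.0 CPM of Atf4 (next 56.8), and replicate 6 had the highest sum of dendritic markers, 67.6 CPM (next 58.9). The 24.1 CPM of Cd207 in that library were part of its sum.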

How the results depend on the processing

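All 190 called genes kept their direction under all 28 alternatives, but their calls depend on the libraries and model. The alternatives refit the libraries in which these genes were called, so the kept direction is a description only. The share of tested genes called is given in place of their number, a choice made after seeing the data. That share (with genes higher and lower) was 5.19% (250 and 365) with DESeq2, 0.901% with no filter on low counts (150 genes, within 1.5 times the 190, of a larger number tested), 0.0159% (0 and 2) with 6 female groups in the fit, 0.966% (20 and 94) with the library whose title ends in 14N, 0% (0 and 0) with title number as a random effect, 0.892% (29 and 79) without title number 3 and 0% (0 and 0) without title number 13. Summing counts over title numbers, an alternative chosen after seeing the data, gave 0.0333% (3 and 1). Without title number 24 there were 32 higher. With single libraries left out, the share lay between 0.475% and 2.11% (12 to 96 higher and 44 to 179 lower), lowest without Low Amino Acid replicate 3 and highest without Low Isoleucine replicate 1. DESeq2 size factors in edgeR, quality weights and 3 groups in the fit moved none of these counts over all genes by over 1.5 times. For these alternatives the cause was not tested.

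Among macrophage markers the number called lower was between 0 and 14, and 4 with 3 groups in the fit, with the 14N library or without title number 3. For named genes that were called, the call was lost in between 3 (Cd207 and Trim2) and 23 (Cd14 and Cxcl16) of the 28 alternatives. It was lost in 22 for Clock, Zmat3 and Mmp2, in 21 for C1qc and in 20 for Aen. Signs turned for 2 genes that were not called. Cyp7a1 had -0.24 with the random effect, -0.14, -0.04 and -0.05 without title numbers 3, 9 and 24, -0.19 with sums, and -0.04 to 0.33 without single libraries. Fgf21 had -0.35 with the random effect, 0.00 without title number 3, and 0.00 to 0.35 without single libraries. The difference between ages gave 0 calls in all 36 alternatives.

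No paired analysis was possible because the labels give no replicate numbers that pair the diets. Libraries sharing a title number correlated by 0.298 beyond their group (limma). Genes outside the filled lines were not analysed here.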

Other observations

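Further genes of leukocyte signalling were among the 129 falls. They were chosen after their values were seen, from the called genes, so their direction is no support for the lists above. All 20 fell, by log2 fold changes of -1.02 to -0.54. They included Siglec1, a sialic acid receptor of macrophages (-1.02), the antibody receptors Fcgr4 (-1.01) and Fcgr3 (-0.84), Tyrobp, an adaptor of other myeloid receptors (-0.86), and the kinase Syk (-0.62), which acts below antibody receptors. Integrin chains Itgal (-0.82) and Itgb2 (-0.65), the pan-leukocyte phosphatase Ptprc (-0.63) and the myeloid transcription factor Irf8 (-0.54) fell as well. Fcgr3 had 4.62, 6.28 and 8.80 CPM on Low Isoleucine (lowest, median, highest) and 8.94, 11.6 and 13.4 CPM on Low Amino Acid, and did not overlap.

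Proteasome subunits were also looked at after their values were seen. Of 20 tested subunits of the 19S regulatory particle, which feeds tagged proteins into the core, 4 rose (Psmc4, Psmc1, Psmd4 and Psmd11) and all 20 had a fold change above 0 (median 0.19). The 12 tested subunits of the 20S core also had fold changes above 0 (median 0.15), with 0 called by edgeR. Psmc4 had 63.6, 70.95 and 90.98 CPM on Low Isoleucine and 46.5, 56.5 and 62.7 CPM on Low Amino Acid, without overlap (0.39 ± 0.08, edgeR adjusted p = 0.0313). Psmb8 and Psmb10, of the immunoproteasome, had a median of -0.51.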
